A study of Mus musculus with 9 samples.

Results

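The nuclear genome encodes most protein subunits of the mitochondrial respiratory chain and of ATP synthase, and 84 such genes were described here across mouse livers of 3 genotypes. They were chosen by gene symbol, not by their values. Nuclear protein-coding genes named Nduf followed by a, b, c, s or v and a digit, Sdha to Sdhd, those starting with Uqcr or Atp5, and Cox4 to Cox8 were taken, and pseudogene symbols were left out. This gave 37 genes of complex I, 4 of complex II, 8 of complex III, 18 of complex IV and 17 of complex V, out of 52550 gene identifiers per library. Each gene was assigned to a complex by its symbol alone. Ndufa4 and its relative Ndufa4l2 were thus counted in complex I by name, whichever complex holds their proteins. RNA was measured in 9 libraries, 3 per genotype, and every liver was taken at an age of 320 days. Double-mutant livers were heterozygous for p53 (p53+/-), carried floxed alleles on both copies of Tsc1 (Tsc1fl/fl) and expressed Cre recombinase from the albumin promoter (Alb-Cre), which is active in hepatocytes. Tsc1-deleted livers carried the same floxed alleles and Cre, with no p53 mutation named in their label. The third genotype was p53+/- alone. It served as the comparison for both others because livers with neither mutation were not analysed here. No label ties the 3 libraries of a genotype to different animals, and a p value here reflects only library-to-library spread, which may be technical.

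Complex I (NADH dehydrogenase), complex II (succinate dehydrogenase), complex III (the cytochrome bc1 complex) and complex IV (cytochrome c oxidase) pass electrons from NADH or succinate to oxygen, and complex V (ATP synthase) uses the resulting proton gradient to make ATP. Mitochondrial DNA encodes a few core subunits of complexes I, III, IV and V, so their assembly draws on both genomes, whereas complex II is encoded by nuclear genes alone and also works in the citric acid cycle. In hepatocytes this machinery powers urea synthesis, gluconeogenesis and fatty acid oxidation. Tsc1 is part of the complex that restrains mTORC1, a kinase known to promote production of mitochondrial proteins, and p53 is a tumour suppressor with several known targets in mitochondrial metabolism.

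The deposited values were read as FPKM, a level per gene length and per mapped reads of the library. Depth was estimated at 10600000 to 18300000 reads per library. Shares of reads were estimated as FPKM times exon length. Mitochondrial transcripts held 8.0% to 11.9% of these reads in the double mutant, 9.6% to 24.1% in Tsc1-deleted livers, and 68.0%, 55.9% and 25.5% in p53+/- libraries 1, 2 and 3. Nuclear protein-coding genes held 82.0% to 87.3% of these reads in the double mutant, 65.9% to 85.4% in Tsc1-deleted livers, and 7.4%, 6.6% and 61.8% in the p53+/- libraries. The first 2 p53+/- libraries therefore left about 1000000 and 700000 reads for nuclear protein-coding genes, and a tested subunit gene had a median of about 99 and 84 reads there, against about 1000 to 2000 elsewhere. The third p53+/- library also stood apart, in another way. The 8 hepatocyte markers of a fixed list, all above 0 in every library, summed to 14874 to 17916 rescaled FPKM (defined below) in the double mutant and 17084 to 24206 in Tsc1-deleted livers, against 30269, 30624 and 467 in p53+/- libraries 1, 2 and 3. The 5 macrophage markers summed to 80.4 to 283 in the double mutant and 60.0 to 148 in Tsc1-deleted livers, against 126, 112 and 851 in p53+/- livers. The 6 stellate cell and fibroblast markers summed to 8.17 to 67.95 in the double mutant and 27.3 to 48.7 in Tsc1-deleted livers, against 74.4, 47.1 and 669.9 in p53+/- livers. The 4 bile duct markers summed to 30.2 to 77.8 in the double mutant and 13.5 to 30.1 in Tsc1-deleted livers, against 4.41, 5.58 and 275 in p53+/- livers. Thus p53+/- library 3 had the lowest hepatocyte sum and the highest macrophage, fibroblast and bile duct sums of the 9. The red cell markers summed to 18.2 to 367 in the other genotypes, against 8059, 16990 and 89.6 in p53+/- livers. The part of these cell types in the results below was not tested. The 3 markers of fat were at 0 in 8 libraries, and in Tsc1-deleted library 1 they summed to 0.0098 rescaled FPKM with 2 of the 3 at 0. Tsc1, read over the whole gene, stood at 1.06, 1.14 and 1.04 deposited FPKM in the double mutant, 0.767, 0.919 and 0.953 in Tsc1-deleted livers and 0.147, 0.253 and 0.993 FPKM in p53+/- livers. After rescaling the order turned round: Tsc1 stood at 0.792, 0.879 and 0.804 rescaled FPKM in the double mutant and at 0.594, 0.749 and 0.707 in Tsc1-deleted livers, against 1.17, 2.18 and 1.03 in p53+/- livers, without overlap. Trp53 stood at 7.23, 4.53 and 5.35 rescaled FPKM in the double mutant and at 5.47, 6.97 and 12.1 in Tsc1-deleted livers, against 4.23, 4.27 and 15.98 in p53+/- livers, and p53+/- library 3 was the highest of the 9. A whole-gene value does not isolate the exons that Cre removes, and other liver cells keep them, so these values do not check the labels. Of summed FPKM, nuclear protein-coding genes held 57.3% to 65.8% in the double mutant and 40.1% to 62.5% in Tsc1-deleted livers. In p53+/- libraries 1, 2 and 3 they held 2.6%, 2.4% and 31.8%. Because the nuclear share differed this much, each comparison was made as deposited and again after all libraries were brought to an equal summed FPKM of nuclear protein-coding genes (rescaled FPKM below). In bulk tissue, fewer cells of a type and less RNA per cell cannot be told apart.

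**Figure D1:**
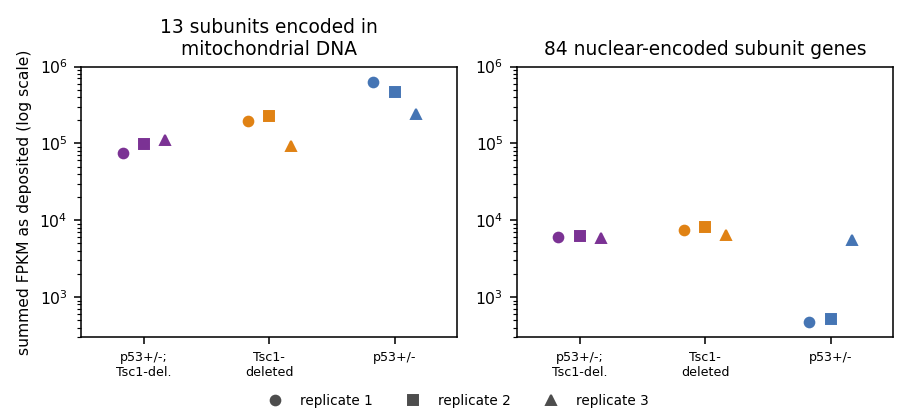
Summed FPKM as deposited on a log axis for the 13 respiratory chain subunits encoded in mitochondrial DNA (left) and for the 84 nuclear-encoded subunit genes (right), with 1 point per library and replicate number shown by symbol. The p53+/- libraries 1 and 2 hold the highest mitochondrial sums, 624326 and 470658, and the lowest nuclear sums, 479 and 515.

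As deposited, nuclear-encoded subunits were far lower in 2 of the 3 p53+/- libraries than anywhere else. The 84 genes summed to 6068, 6322 and 5840 deposited FPKM in the double mutant, to 7412, 8061 and 6335 in Tsc1-deleted livers, and to 479, 515 and 5573 FPKM in p53+/- livers. The p53+/- libraries 1 and 2 lay far below the other 7, and p53+/- library 3 lay just below the lowest double-mutant library. Atp5b, the catalytic beta subunit of ATP synthase, had the lowest adjusted p among the members. It stood at 191, 293 and 147 deposited FPKM in the double mutant, against 5.22, 5.88 and 34.7 FPKM in p53+/- livers, a difference of 4.14 on the log2(FPKM + 1) scale (SE 0.94, limma adjusted p = 0.0101). Sdhd, a membrane anchor of complex II, stood at 110.1, 126 and 129.8 deposited FPKM in the double mutant and at 117, 82.3 and 136 in Tsc1-deleted livers, against 4.91, 4.33 and 31.3 FPKM in p53+/- livers. Its log2 change was 3.61 in the double mutant (SE 0.91, limma adjusted p = 0.0139) and 3.46 in Tsc1-deleted livers (SE 0.91, limma adjusted p = 0.0218). For both genes the groups did not overlap.

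Of the 79 members that passed the filter on low values (at least 1 FPKM in at least 3 libraries), 30 were called higher in the double mutant than in p53+/- livers, or 38.0%, and none lower. Among all 12014 genes tested, 31.9% were called higher. In Tsc1-deleted against p53+/- livers, 21 members were called higher, or 26.6%, and none lower, against 12.1% of all genes. By complex, the double mutant had 11 of 37 tested genes of complex I called higher, 4 of 4 of complex II, 4 of 8 of complex III, 4 of 13 of complex IV and 7 of 17 of complex V. The Tsc1-deleted livers had 7, 4, 4, 2 and 4 called higher in the same order of complexes. The median log2 change of the 79 members was 2.36 in the double mutant and 2.57 in Tsc1-deleted livers, against medians of 1.38 and 1.07 over all genes tested. The 2 comparisons share the p53+/- libraries. These counts moved with single libraries. The double-mutant count of 30 became 79 without p53+/- library 3, 1 without p53+/- library 1 or 2, 1, 0 and 1 without double-mutant library 1, 2 or 3, and 16 and 19 without Tsc1-deleted library 1 or 2. The Tsc1-deleted count of 21 became 79 without p53+/- library 3, 0 without p53+/- library 1 or 2 or without any 1 Tsc1-deleted library, and 3, 2 and 2 without double-mutant library 1, 2 or 3.

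After rescaling, no member passed in any comparison, and the log2 changes of single members in the double mutant against p53+/- livers ran from -1.69 to 1.84. The background of calls in either direction was 3.72% of genes for the double mutant against p53+/- livers, 0.175% for Tsc1-deleted against p53+/- livers and 0.0166% for the double mutant against Tsc1-deleted livers. At an unadjusted limma p under 0.05 the counts were 28, 11 and 0 of the 79 tested members. Of all 12014 genes, 2648, 2013 and 512 had such a p. The 28 members were a larger share than the 2648 genes, and the 11 members a smaller share than the 2013. The members' median log2 change was 0.21 in the double mutant against p53+/- livers (all genes 0.16) and 0.46 in Tsc1-deleted against p53+/- livers (all genes -0.10). The double mutant had 22 members above every p53+/- library, or 27.8%, against 17.4% of all genes, and 17 below every p53+/- library, or 21.5%, against 9.56% of all genes. Tsc1-deleted livers had 24 members above every p53+/- library, or 30.4%, against 8.75% of all genes, and 5 below, or 6.33%, against 11.9% of all genes.

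**Figure D2:**
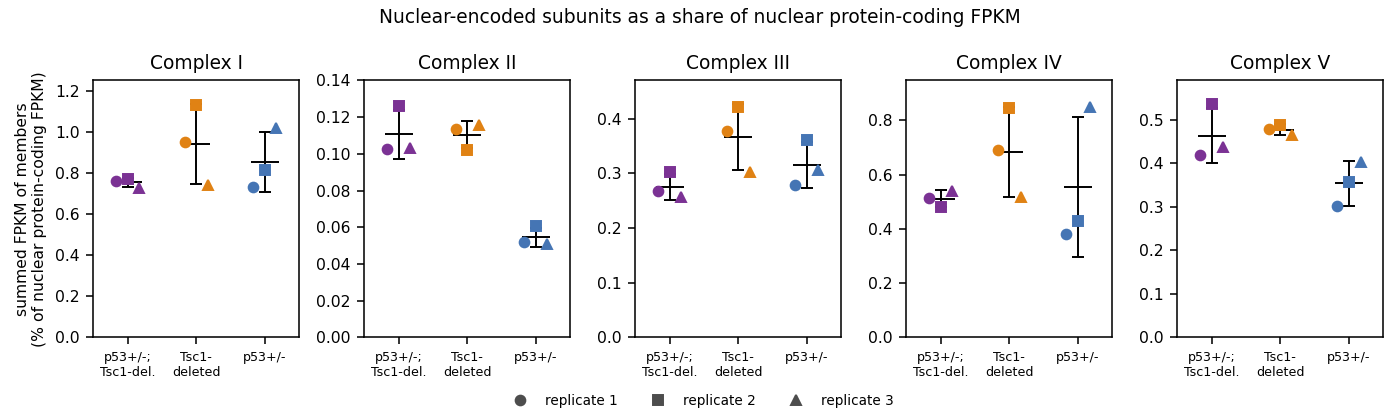
Summed FPKM of the nuclear-encoded subunits of each complex as a percent of all nuclear protein-coding FPKM, with 1 point per library and bars for the mean and SD of 3 libraries. In complex II all 6 libraries of the double-mutant and Tsc1-deleted genotypes, from 0.102% to 0.126%, lie above the 3 p53+/- libraries, from 0.051% to 0.0604%.

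Complex II, the enzyme that oxidises succinate, had the highest median change of the 5 complexes against p53+/- livers. Its 4 genes made up 0.102%, 0.126% and 0.103% of nuclear protein-coding FPKM in double-mutant libraries and 0.114%, 0.102% and 0.116% in Tsc1-deleted libraries, against 0.0518%, 0.0604% and 0.0510% in p53+/- libraries. The mean was 0.1106 ± 0.0133% in the double mutant and 0.1105 ± 0.0073% in Tsc1-deleted livers, against 0.0544 ± 0.0052% in p53+/- livers (SD, n = 3 each), 2.03 times as much in each. The sums of the 3 p53+/- libraries lay close together and below all 6 others, but Sdhb and Sdhc varied more among these libraries. For Sdhc library 3 was the highest of them, at 30.9 rescaled FPKM against 15.7 and 14.3. For Sdhb it was the lowest, at 32.5 against 39.2 and 61.5. The part of the mitochondrial share and of cell types in these values was not tested. The median log2 change of the 4 genes was 1.10 in the double mutant and 0.99 in Tsc1-deleted livers, and stayed between 0.93 and 1.19 and between 0.89 and 1.10 in every alternative setting of the rescaled comparisons. With 4 genes these are descriptions of a small group, and its members share a complex.

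The promoters of 3 complex II genes are shown because the genes of this complex had positive changes together, and that of Atp5b because it had the largest change of any member. Each window runs from 250 bases before to 50 bases after the annotated start, 5′ to 3′ on the strand of the gene (RefSeq, GRCm38.p6): Sdha at chr13:74350191-74350490 on the minus strand, Sdhb at chr4:140961021-140961320 on the plus strand, Sdhd at chr9:50603800-50604099 on the minus strand and Atp5b at chr10:128083057-128083356 on the plus strand. Capitals mark matches, on either strand, to GCGCA, any base and GCGC in a row (NRF-1), CCGGAAG (ETS factors such as GABP), AAGATGGC (YY1), TCAAGGTCA (ERR) and CCAAT.
Sdha: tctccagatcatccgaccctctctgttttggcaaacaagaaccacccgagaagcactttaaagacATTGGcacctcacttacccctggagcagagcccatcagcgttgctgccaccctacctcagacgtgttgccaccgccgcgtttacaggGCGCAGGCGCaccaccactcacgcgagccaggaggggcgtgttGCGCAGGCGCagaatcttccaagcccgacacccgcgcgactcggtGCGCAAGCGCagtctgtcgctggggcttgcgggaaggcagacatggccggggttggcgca
Sdhb: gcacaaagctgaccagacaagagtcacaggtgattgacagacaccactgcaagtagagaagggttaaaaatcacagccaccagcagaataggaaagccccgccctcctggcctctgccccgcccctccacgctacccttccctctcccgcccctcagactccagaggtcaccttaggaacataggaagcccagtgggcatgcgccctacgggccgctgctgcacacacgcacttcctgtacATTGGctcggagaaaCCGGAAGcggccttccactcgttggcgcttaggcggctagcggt
Sdhd: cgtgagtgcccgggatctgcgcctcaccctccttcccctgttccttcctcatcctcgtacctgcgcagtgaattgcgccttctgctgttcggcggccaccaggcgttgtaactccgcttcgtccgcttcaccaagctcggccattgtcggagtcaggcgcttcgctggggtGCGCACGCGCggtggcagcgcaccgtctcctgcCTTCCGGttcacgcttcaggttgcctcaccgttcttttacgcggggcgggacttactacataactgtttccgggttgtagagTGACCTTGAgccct
Atp5b: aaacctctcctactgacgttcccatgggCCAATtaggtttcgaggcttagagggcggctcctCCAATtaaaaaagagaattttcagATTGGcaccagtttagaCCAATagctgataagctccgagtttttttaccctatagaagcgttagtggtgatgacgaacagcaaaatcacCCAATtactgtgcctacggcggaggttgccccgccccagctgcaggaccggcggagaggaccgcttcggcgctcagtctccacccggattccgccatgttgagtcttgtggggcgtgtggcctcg

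In these windows Sdha held 3 NRF-1 matches and 1 CCAAT match, Sdhb held 1 ETS and 1 CCAAT match, Sdhd held 1 NRF-1, 1 ETS and 1 ERR match, and Atp5b held 5 CCAAT matches. No marked stretches overlapped. The windows of Cox5a and Ndufa12, read too but not shown, held no match to any of these letters. A window was found for 66 of the 84 members, 71 windows in all, since 5 genes had 2. The NRF-1 letters occurred in 25.4% of member windows, against 4.6% of all 32851 windows in the table. For the ETS letters the shares were 22.5% and 8.86%, for YY1 12.7% and 2.75%, for ERR 2.82% and 0.423%, and for CCAAT 42.3% and 37.4%. NRF-1 letters stood in 6 of 16 windows of members above every p53+/- library in the double mutant and in 4 of 16 windows of members below. In the same windows, above and below, ETS letters stood in 4 and 5 and YY1 letters in 1 and 4. For ERR the counts were 2 and 0, and for CCAAT 8 and 6. A match describes the letters in a window and is not a binding site.

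Sdha (ENSMUSG00000021577, chromosome 13), the flavoprotein that oxidises succinate, stood at 32.1, 62.6 and 36.9 rescaled FPKM in the double mutant and at 29.1, 24.1 and 50.8 in Tsc1-deleted livers, against 19.6, 19.6 and 16.2 in p53+/- livers. Both genotypes lay above all p53+/- libraries, with log2 changes of 1.15 in the double mutant (SE 0.43, limma adjusted p = 0.151) and 0.81 in Tsc1-deleted livers (SE 0.43, limma adjusted p = 0.376). Sdhb (ENSMUSG00000009863, chromosome 4), the iron-sulphur subunit, overlapped. It stood at 69.9, 73.2 and 51.7 rescaled FPKM in the double mutant and at 85.5, 89.0 and 60.3 in Tsc1-deleted livers, against 39.2, 61.5 and 32.5 in p53+/- livers. Its log2 change was 0.57 in the double mutant (limma adjusted p = 0.475) and 0.83 in Tsc1-deleted livers (limma adjusted p = 0.358). Sdhc (ENSMUSG00000058076, chromosome 1), a membrane anchor that helps bind ubiquinone, stood at 40.5, 43.3 and 37.5 rescaled FPKM in the double mutant and at 44.6, 44.1 and 42.2 in Tsc1-deleted livers, against 15.7, 14.3 and 30.9 in p53+/- livers. The groups did not overlap, and p53+/- library 3 lay closest to the others. Its log2 change was 1.04 in the double mutant (limma adjusted p = 0.159) and 1.15 in Tsc1-deleted livers (limma adjusted p = 0.185), and against p53+/- library 3 alone it was 0.38 in the double mutant and 0.48 in Tsc1-deleted livers. Sdhd (ENSMUSG00000000171, chromosome 9), the other anchor, stood at 82.3, 97.3 and 101 rescaled FPKM in the double mutant and at 90.2, 67.1 and 101 in Tsc1-deleted livers, against 39.2, 37.3 and 32.4 in p53+/- livers. Its groups did not overlap either, and its log2 change was 1.34 in the double mutant (SE 0.39, limma adjusted p = 0.0848) and 1.21 in Tsc1-deleted livers (SE 0.39, limma adjusted p = 0.167).

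**Figure D3:**
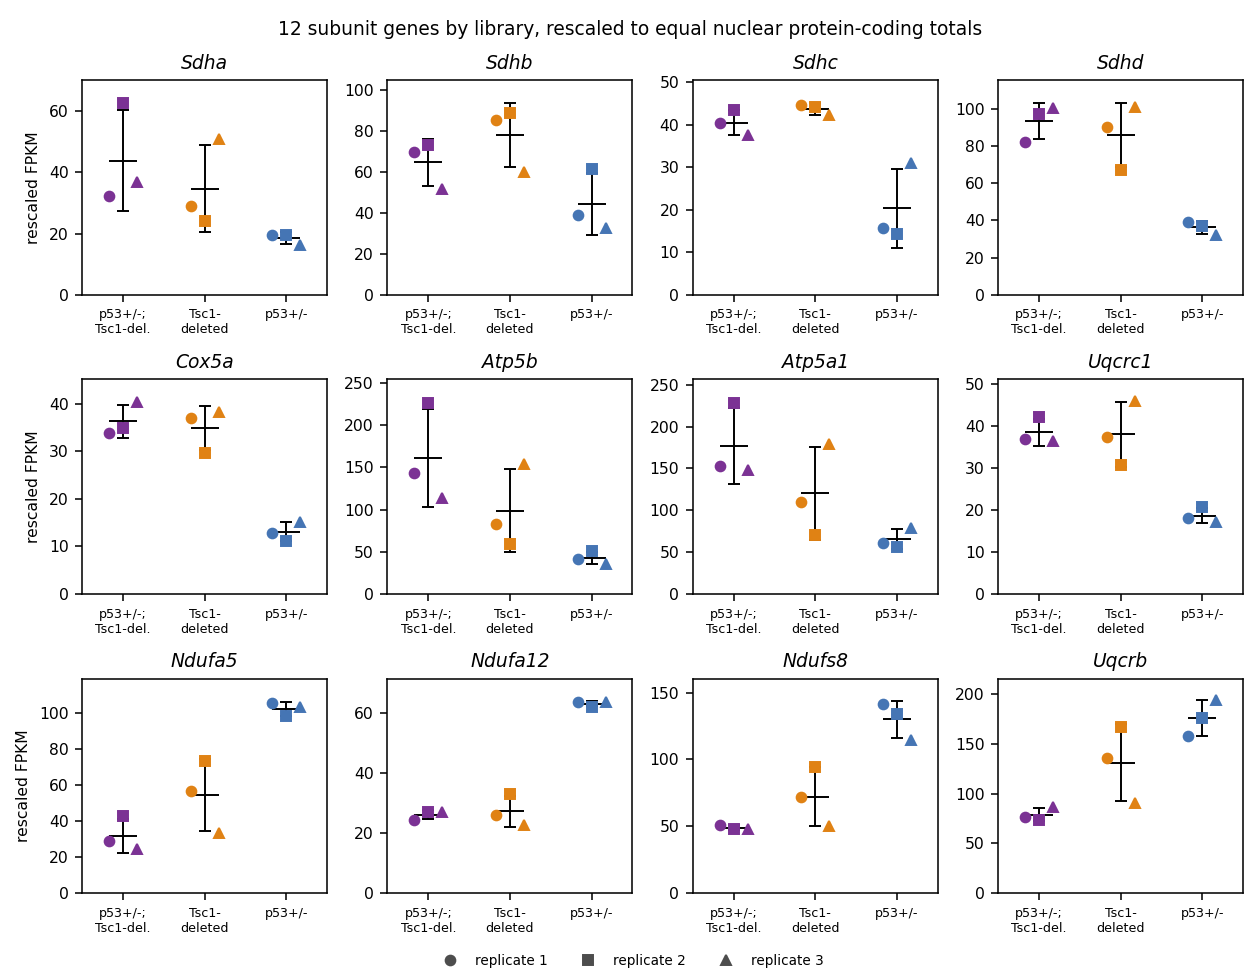
Rescaled FPKM of 12 subunit genes in each library, with bars for the mean and SD of 3 libraries. Sdhd, Cox5a, Atp5b and Uqcrc1 lie higher in both Tsc1-deleted genotypes than in all p53+/- libraries, and Ndufa5, Ndufa12 and Ndufs8 lie lower.

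In complex I the double mutant differed from p53+/- livers in both directions, with 8 members above all p53+/- libraries, or 21.6% against 17.4% of all genes, and 11 below, or 29.7% against 9.56% of all genes. The median log2 change of the 37 genes was -0.07. The lowest log2 change of all members was that of Ndufa5 (ENSMUSG00000023089, chromosome 6), an accessory subunit of the matrix arm. It stood at 28.7, 42.4 and 24.2 rescaled FPKM in the double mutant and at 56.3, 73.3 and 33.3 in Tsc1-deleted livers, against 105, 97.9 and 103 in p53+/- livers. All 6 libraries lay below the p53+/- ones, with a log2 change of -1.69 in the double mutant (SE 0.44, limma adjusted p = 0.061) and -0.97 in Tsc1-deleted livers (limma adjusted p = 0.303). Ndufa12 (ENSMUSG00000020022, chromosome 10), an accessory subunit attached late in assembly, stood at 24.4, 27.0 and 26.8 rescaled FPKM in the double mutant and at 25.9, 32.9 and 22.8 in Tsc1-deleted livers, against 63.7, 62.1 and 63.7 in p53+/- livers. The p53+/- values were nearly equal and lay above all 6 others. Its log2 change was -1.24 in the double mutant (SE 0.35, limma adjusted p = 0.0748) and -1.20 in Tsc1-deleted livers (limma adjusted p = 0.14).

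Ndufs8 (ENSMUSG00000059734, chromosome 19), a core subunit that holds iron-sulphur clusters, stood at 50.9, 48.0 and 47.9 rescaled FPKM in the double mutant, against 141, 134 and 115 in p53+/- livers (log2 change -1.39, SE 0.42, limma adjusted p = 0.0904). Ndufb4, an accessory subunit of the membrane arm, stood at 22.5, 19.6 and 26.2 rescaled FPKM in the double mutant, against 85.3, 84.2 and 39.0 in p53+/- livers (log2 change -1.49, limma adjusted p = 0.104). Its level is uncertain, since the processed pseudogene Ndufb4c held 41.0, 33.6 and 41.5 FPKM as deposited in the double mutant, against 4.01, 4.59 and 32.5 in p53+/- livers. Ndufa3, another small membrane-arm subunit, stood at 38.0, 38.8 and 48.4 rescaled FPKM in the double mutant, against 108, 111 and 98.4 in p53+/- livers (log2 change -1.33, limma adjusted p = 0.121). For these 3 genes the groups did not overlap.

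Other core subunits of complex I lay on either side of the p53+/- values. Ndufs1, the largest iron-sulphur subunit, stood at 8.05, 12.96 and 7.25 rescaled FPKM in the double mutant, against 2.95, 5.24 and 3.83 in p53+/- livers, without overlap (log2 change 1.04, limma adjusted p = 0.118). Ndufv1, which binds NADH and flavin, stood at 21.5, 28.6 and 23.0 rescaled FPKM in the double mutant, above the 12.8, 17.97 and 18.3 of p53+/- livers. Ndufs3 lay slightly above, at 24.1, 26.7 and 24.3 rescaled FPKM in the double mutant and 17.4, 20.8 and 20.01 in p53+/- livers. Ndufv2, at the NADH end of the enzyme, overlapped, at 37.3, 40.6 and 47.4 rescaled FPKM in the double mutant and 42.3, 34.5 and 68.7 in p53+/- livers. Ndufs7, next to the ubiquinone site, lay below, at 18.3, 19.0 and 17.5 rescaled FPKM in the double mutant and 23.8, 31.8 and 35.5 in p53+/- livers. Among accessory subunits, Ndufb9, 1 of the 2 with the highest mean, stood at 196, 214 and 144 rescaled FPKM in the double mutant, against 89.0, 119 and 69.5 in p53+/- livers (log2 change 1.01, limma adjusted p = 0.249). Ndufa6, the other, overlapped, at 227, 187 and 173 in the double mutant and 114, 178 and 204 in p53+/- livers.

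In Tsc1-deleted against p53+/- livers the highest member was Ndufb6, an accessory subunit of the membrane arm, at 68.6, 61.1 and 44.3 rescaled FPKM in Tsc1-deleted livers, against 11.9, 17.2 and 35.3 in p53+/- livers (log2 change 1.51, SE 0.45, limma adjusted p = 0.149). The annotated exons of Ndufb6 overlap those of Smim27 on the opposite strand over 39.0% of their length, and no source used here says whether the counting kept strands apart. Ndufs4, an accessory subunit whose loss in mice causes a Leigh-like encephalopathy, stood at 24.5, 27.5 and 22.7 rescaled FPKM in Tsc1-deleted livers, against 6.65, 5.77 and 18.6 in p53+/- livers (log2 change 1.36, limma adjusted p = 0.165). Neither gene overlapped between these groups, and in both p53+/- library 3 was the closest to the Tsc1-deleted values. Without that library the log2 change was 1.92 for Ndufb6 and 1.84 for Ndufs4, and against that library alone it was 0.68 and 0.40.

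In complex III the double mutant had 3 of 8 members above all p53+/- libraries, or 37.5% against 17.4% of all genes. Below them lay 2 members, or 25.0% against 9.56% of all genes, and 3 overlapped. Uqcrc1 and Uqcrc2, the core proteins, lay above all p53+/- libraries. Uqcrc1 (ENSMUSG00000025651, chromosome 9) stood at 36.9, 42.2 and 36.6 rescaled FPKM in the double mutant and at 37.5, 30.7 and 46.0 in Tsc1-deleted livers, against 18.02, 20.7 and 17.3 in p53+/- livers. Its log2 change in the double mutant was 1.01 (SE 0.35, limma adjusted p = 0.13). Uqcrc2 stood at 48.1, 71.2 and 43.2 rescaled FPKM in the double mutant, against 16.6, 34.1 and 32.3 in p53+/- livers (log2 change 0.98, limma adjusted p = 0.216). Uqcrb, a small subunit that contributes to ubiquinone binding, went the other way. It stood at 76.4, 73.8 and 86.2 rescaled FPKM in the double mutant and at 136, 167 and 90.6 in Tsc1-deleted livers, against 158, 176 and 194 in p53+/- livers. The double mutant lay below the p53+/- libraries (log2 change -1.15, SE 0.44, limma adjusted p = 0.17), and the Tsc1-deleted values overlapped them. Uqcrh, the hinge protein that aids electron transfer from cytochrome c1, is small too but lay above. It stood at 81.1, 95.2 and 89.2 rescaled FPKM in the double mutant and at 86.4, 76.3 and 84.96 in Tsc1-deleted livers, against 40.2, 36.2 and 52.9 in p53+/- livers. Uqcrq, another small subunit, stood at 67.1, 50.2 and 58.8 rescaled FPKM in the double mutant, against 148, 227 and 82.9 in p53+/- livers (log2 change -1.26, limma adjusted p = 0.206). Uqcrfs1, the Rieske iron-sulphur protein, overlapped, at 71.1, 83.1 and 68.0 in the double mutant and 80.1, 115 and 54.3 in p53+/- livers. Uqcr10, the small subunit with the highest mean of complex III, stood at 132, 151 and 118 rescaled FPKM in the double mutant and at 176, 206 and 160.3 in Tsc1-deleted livers, against 64.0, 87.3 and 156 in p53+/- livers. Its Tsc1-deleted values lay above all p53+/- and all double-mutant values, while those of the double mutant and the p53+/- group overlapped.

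Cytochrome c1 (Cyc1), the catalytic haem protein of complex III that the symbol rule does not take, stood at 119, 173 and 86.8 rescaled FPKM in the double mutant and at 96.1, 111 and 91.1 in Tsc1-deleted livers, against 39.4, 47.5 and 30.7 in p53+/- livers. The groups did not overlap, with a log2 change of 1.63 in the double mutant (SE 0.44, limma adjusted p = 0.0672) and 1.34 in Tsc1-deleted livers (limma adjusted p = 0.17). As deposited, its log2 change in Tsc1-deleted livers was 3.60 (limma adjusted p = 0.0183). Cytochrome c (Cycs), the mobile carrier between complexes III and IV, overlapped, at 24.0, 34.9 and 26.7 rescaled FPKM in the double mutant and 24.2, 25.6 and 28.6 in p53+/- livers (log2 change 0.11, limma adjusted p = 0.893).

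In complex IV the lowest adjusted p of any member was that of Cox5a (ENSMUSG00000000088, chromosome 9), a subunit needed for stable assembly of the enzyme. Cox5a stood at 33.8, 34.9 and 40.3 rescaled FPKM in the double mutant and at 37.0, 29.7 and 38.3 in Tsc1-deleted livers, against 12.8, 11.2 and 15.2 in p53+/- livers. Its means were 36.3 ± 3.50 in the double mutant and 34.97 ± 4.62 in Tsc1-deleted livers, against 13.1 ± 2.01 in p53+/- livers (SD, n = 3 each). Both genotypes were clear of the p53+/- values, with a log2 change of 1.41 in the double mutant (SE 0.34, limma adjusted p = 0.0503) and 1.36 in Tsc1-deleted livers (SE 0.34, limma adjusted p = 0.0992). Over the alternative settings the adjusted p in the double mutant ranged from 0.00571 to 0.172. Cox5b, its partner in the matrix domain, did not follow it. Cox5b stood at 49.2, 53.9 and 62.9 rescaled FPKM in the double mutant and at 92.4, 132 and 59.2 in Tsc1-deleted livers, against 60.1, 81.0 and 108 in p53+/- livers, with overlap. Cox4i1, the ubiquitous form of a large regulatory subunit, overlapped too, at 209.6, 108 and 133 rescaled FPKM in the double mutant and at 245, 197 and 143 in Tsc1-deleted livers, against 79.0, 113 and 234 in p53+/- livers. Cox7c, a small membrane subunit, stood at 58.9, 50.4 and 61.7 rescaled FPKM in the double mutant, against 136, 114 and 141 in p53+/- livers, without overlap (log2 change -1.18, limma adjusted p = 0.166). The highest means in the complex were those of Cox6b1 and Cox6a1, and both overlapped between genotypes. Cox6b1 stood at 201, 241 and 246 rescaled FPKM in the double mutant and 227, 226 and 337 in p53+/- livers, and Cox6a1 at 155, 162 and 212 in the double mutant and 89.1, 100.1 and 309 in p53+/- livers.

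Complex V had the largest single difference. Atp5b (ENSMUSG00000025393, chromosome 10) stood at 143, 226 and 114 rescaled FPKM in the double mutant and at 83.2, 58.9 and 154 in Tsc1-deleted livers, against 41.7, 50.7 and 35.9 in p53+/- livers. All 6 libraries lay above the p53+/- ones, and the log2 change in the double mutant was 1.84 (SE 0.50, limma adjusted p = 0.0701). Atp5a1, the alpha subunit that alternates with it in the catalytic head, stood at 153, 229 and 148 rescaled FPKM in the double mutant, against 60.4, 56.6 and 78.8 in p53+/- livers, without overlap (log2 change 1.41, SE 0.49, limma adjusted p = 0.136). Atp5c1, the gamma subunit of the central stalk, stood at 96.4, 112 and 103 rescaled FPKM in the double mutant and at 99.4, 99.1 and 99.8 in Tsc1-deleted livers, above the 46.2, 62.8 and 74.9 of p53+/- livers. The smaller subunits Atp5j, Atp5e and Atp5h lay below all p53+/- libraries in the double mutant, and Atp5h, a subunit of the peripheral stalk, stood at 74.4, 79.8 and 87.9 rescaled FPKM in the double mutant and at 138, 158 and 77.5 in Tsc1-deleted livers, against 145, 148 and 137 in p53+/- livers.

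**Figure D4:**
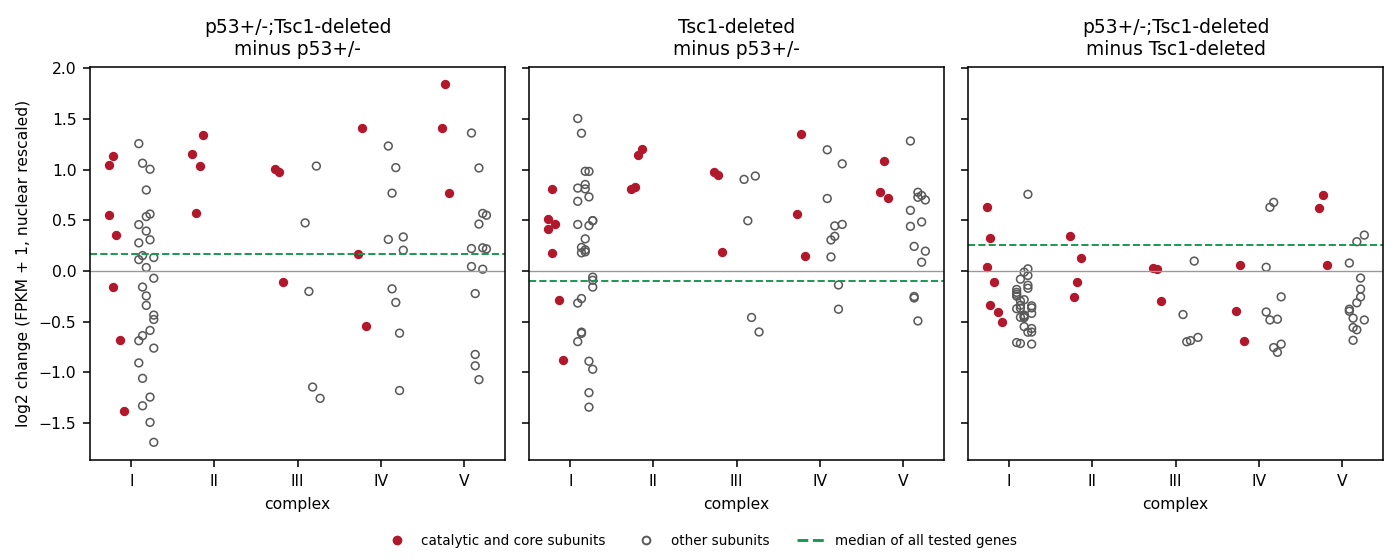
Log2 change of each tested member after rescaling, by complex and comparison, with filled points for 20 catalytic and core subunits, open points for 59 other subunits and a dashed line at the median of all genes tested. In the left panel the filled points have a median of 0.88 and the open points a median of 0.04.

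A list of 20 catalytic and core subunits and the 59 other tested members differed in level of change. In the double mutant against p53+/- livers the core subunits had a median log2 change of 0.88, with 15 positive and 5 negative, and the others a median of 0.04, with 32 positive and 27 negative. Without overlap, 13 core subunits (65.0%) lay above and 2 below, while 9 of the others (15.3%) lay above and 15 (25.4%) below. Of all genes 17.4% lay above and 9.56% below, so the others lay above about as often as genes in general and below more often. In Tsc1-deleted against p53+/- livers the medians were 0.75 for core and 0.34 for other subunits. As a share of nuclear protein-coding FPKM, the core subunits stood at 0.608 ± 0.0676% in the double mutant and 0.609 ± 0.0301% in Tsc1-deleted livers, against 0.428 ± 0.0604% in p53+/- livers (SD, n = 3 each). The other subunits stood at 1.51 ± 0.0313% and 1.97 ± 0.447%, against 1.70 ± 0.396%. Core genes are longer, and none of the 28 members with annotated exons of 1217 bases or fewer is a core subunit. By length, the contrast in the double mutant against p53+/- livers was seen only among longer members. Among the 26 members of 2102 bases or more, the 12 core subunits had a median of 1.02 and the 14 others a median of -0.03. All 7399 tested genes of that length had a median of 0.20. Among the 25 members of 1218 to 2101 bases, the 8 core subunits had a median of 0.03, with 4 positive and 4 negative. The 17 others of that length had a median of 0.15, as did all 1460 tested genes of that length. The list was drawn up with earlier results of these data known, so the contrast is a description.

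Since the p53+/- group holds libraries of 2 kinds, each member was also compared with either kind alone, as the rescaled values allow. Against p53+/- libraries 1 and 2, the double mutant had 21 members called higher and 8 lower of 79, where 18.7% of all genes were called higher and 5.98% lower. Against library 3 alone, which is then assumed to vary like the other genotypes, it had 4 called higher, Atp5b, Cox5a, Ndufb9 and Sdhd, and 5 lower, Cox8a, Ndufa12, Ndufa2, Ndufa4l2 and Ndufa5. The background there was 9.44% higher and 18.5% lower. Tsc1-deleted livers had 12 called higher and 1 lower against libraries 1 and 2, with backgrounds of 4.36% and 3.95%. Against library 3 they had 4 called higher, Cox5a, Ndufb9, Sdhb and Sdhd, and 3 lower, Ndufa12, Ndufa2 and Ndufa4l2, with backgrounds of 9.25% and 26.6%. These names were taken after their values were seen. Cox5a in the double mutant changed by 1.52 on the log2 scale against libraries 1 and 2 (limma adjusted p = 0.00571) and by 1.20 against library 3 (limma adjusted p = 0.0371). Sdhd changed by 1.26 (limma adjusted p = 0.0166) and by 1.496 (limma adjusted p = 0.0244), and Atp5b by 1.73 (limma adjusted p = 0.0226) and by 2.08 (limma adjusted p = 0.0309). Ndufa5 changed by -1.68 (limma adjusted p = 0.0149) and by -1.71 (limma adjusted p = 0.0374), and Ndufa12 by -1.24 (limma adjusted p = 0.0133) and by -1.26 (limma adjusted p = 0.0345). These 2 sets of values share the double-mutant libraries. The choice of p53+/- libraries moved the members as a group. The median log2 change of the 79 members in the double mutant was 0.45 against libraries 1 and 2 and -0.35 against library 3. In Tsc1-deleted livers it was 0.64 and -0.03. Complex II kept its direction, with Sdha at 1.06 and 1.33 and Sdhb at 0.38 and 0.96 in the double mutant.

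The last comparison set double-mutant livers against Tsc1-deleted livers, which differ by the p53 allele named in the labels. No member passed, as deposited or rescaled, where 0.025% and 0.0166% of all genes did. No member had an unadjusted limma p under 0.05 on either scale, where 256 and 512 of all 12014 genes did. After rescaling, 59 of 79 members had a negative log2 change, with a median of -0.31, whereas 8987 of all 12014 genes had a positive one, with a median of 0.25. Below every Tsc1-deleted library lay 14 members, or 17.7%, against 3.3% of all genes, and above lay Cox6b2 and Ndufa4l2, 2.53% of the members, against 13.2% of all genes. By complex the medians were -0.34 for complex I, 0.01 for complex II, -0.36 for complex III, -0.40 for complex IV and -0.26 for complex V. The core subunits had a median of 0.03 and the other subunits a median of -0.37.

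Cox7c had the lowest log2 change of this comparison, at 58.9, 50.4 and 61.7 rescaled FPKM in the double mutant, against 102, 150 and 64.6 in Tsc1-deleted livers (log2 change -0.80, SE 0.45, limma adjusted p = 0.882). Cox7b, another small membrane subunit of complex IV, stood at 74.5, 82.3 and 91.2 rescaled FPKM in the double mutant, against 144, 197 and 96.4 in Tsc1-deleted livers (log2 change -0.76, limma adjusted p = 0.882). Uqcrb had a log2 change of -0.69 (limma adjusted p = 0.882). In all 3 genes the groups did not overlap, but Tsc1-deleted library 3 lay next to the double mutant and libraries 1 and 2 lay far above it. At the other end, Atp5b stood at 143, 226 and 114 rescaled FPKM in the double mutant, against 83.2, 58.9 and 154 in Tsc1-deleted livers, with overlap (log2 change 0.75, limma adjusted p = 0.882). Sdhd had a log2 difference of 0.13 (SE 0.39, limma adjusted p = 0.953). Cox7a1, a heart and muscle isoform, varied from 0.663 to 8.64 rescaled FPKM within the double mutant and from 2.61 to 6.98 in Tsc1-deleted livers (log2 change -0.72, limma adjusted p = 0.888).

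The same split of the Tsc1-deleted libraries ran through the members as a group. The median deviation of the members from their own mean over the 9 libraries was -0.07, -0.05 and -0.10 on the log2 scale in the double mutant and 0.29, 0.40 and -0.04 in Tsc1-deleted libraries 1, 2 and 3. In the same libraries the mitochondrial share of the estimated reads was 8.0%, 10.4% and 11.9% in the double mutant and 19.97%, 24.1% and 9.6% in Tsc1-deleted livers, and its part in the result was not tested. With only the 6 libraries of this comparison and without Tsc1-deleted library 3, a setting added after the data were seen, Cox7c had a log2 change of -1.11 (limma adjusted p = 0.0544), and still no member passed. Longer genes had higher log2 changes in this comparison. Spearman's rho between log2 change and annotated exon length was 0.35 across the 79 members and 0.27 across 12004 genes, a description over genes that share the same libraries.

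**Figure D5:**
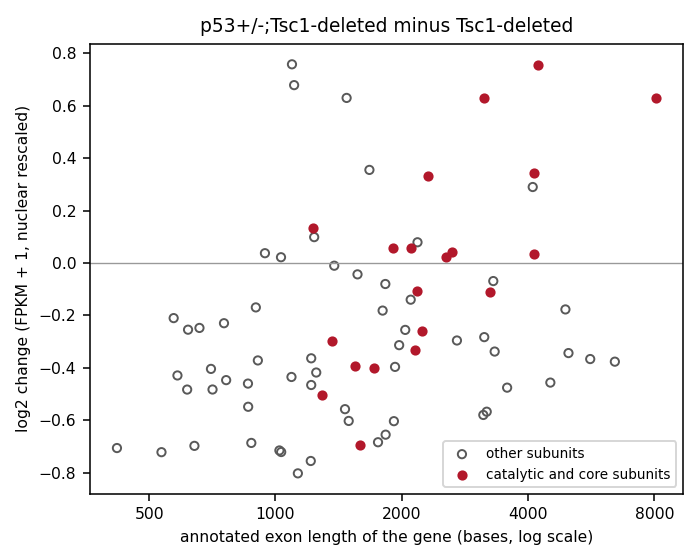
Log2 change between double-mutant and Tsc1-deleted livers after rescaling against annotated exon length (log axis) for the 79 tested members, with filled points for core subunits. Of the 59 open points 50 lie below 0, and Atp5b, a core subunit, is near the top at 0.75.

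Several subunits exist as tissue isoforms, and the liver libraries mostly held the ubiquitous ones. Cox7b2 and Cox8c, whose known expression centres on testis, were listed at 0 in every library. Cox8b and Cox6a2, isoforms of heart and skeletal muscle, reached at most 1.34 and 2.29 FPKM as deposited. Those 4 genes and Cox4i2 were the 5 members that did not pass the filter. Cox4i2, the oxygen-responsive lung isoform of Cox4, stood at 0.87, 0.295 and 0.895 deposited FPKM in the double mutant and at 0.29, 0.708 and 0.801 in Tsc1-deleted livers, against 0, 0 and 10.4 FPKM in p53+/- livers. The high value belongs to p53+/- library 3, the library with a hepatocyte marker sum of 467 rescaled FPKM. Ndufa4l2, a hypoxia-induced relative of Ndufa4, stood at 4.45, 2.57 and 3.00 rescaled FPKM in the double mutant and at 1.20, 1.85 and 1.58 in Tsc1-deleted livers, against 3.39, 2.11 and 18.3 in p53+/- livers. The same p53+/- library was the highest. Its log2 change was -0.59 in the double mutant against p53+/- livers (limma adjusted p = 0.608), 0.21 without library 3 and -2.17 against library 3 alone (limma adjusted p = 0.00445). In Tsc1-deleted livers it was -1.34 (limma adjusted p = 0.288), -0.55 without library 3 and -2.93 against library 3 alone (limma adjusted p = 0.00114). Between the double mutant and Tsc1-deleted livers its log2 change was 0.76 (limma adjusted p = 0.882), without overlap.

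Ndufa4l2 made up 7.13%, 3.61% and 4.44% of the summed Ndufa4 and Ndufa4l2 FPKM in the double mutant and 1.75%, 3.20% and 2.20% in Tsc1-deleted livers, against 9.10%, 6.70% and 27.9% in p53+/- livers. Cox6b2, known as the testis isoform of Cox6b, stood at 2.52, 1.32 and 1.76 rescaled FPKM in the double mutant, against 0.937, 0.835 and 0.55 in Tsc1-deleted livers, without overlap (log2 change 0.68, limma adjusted p = 0.882). It was 1.24% or less of the summed Cox6b1 and Cox6b2 FPKM in every library. Cox7a2, the liver form of Cox7a, stood at 97.8, 81.7 and 85.8 rescaled FPKM in the double mutant, against 34.2, 24.2 and 60.3 in p53+/- livers, without overlap (log2 change 1.23, limma adjusted p = 0.14). Cox7a2l, which helps join complexes III and IV into supercomplexes, overlapped, at 75.2, 59.5 and 80.1 rescaled FPKM in the double mutant and 36.9, 27.2 and 69.5 in p53+/- livers. Cox8a was highest in p53+/- library 3, at 340.5 rescaled FPKM, against 58.6 and 80.8 in p53+/- libraries 1 and 2 and 131 to 189 in the other genotypes. Of the 3 genes for the identical c-ring subunit of ATP synthase, Atp5g3 held most of the FPKM in all 6 libraries of the double-mutant and Tsc1-deleted genotypes, from 50.6% to 68.8%, and 39.5% to 47.7% in p53+/- livers. Atp5g1 stood at 14.5 to 20.2 rescaled FPKM in the double mutant and 9.06 to 14.4 in p53+/- livers, without overlap, and Atp5g2 overlapped, at 23.6 to 37.9 in the double mutant and 12.6 to 42.5 in p53+/- livers. Atp5g3 itself stood at 60.3, 90.6 and 62.5 rescaled FPKM in the double mutant, against 25.3, 21.6 and 34.2 in p53+/- livers, without overlap (log2 change 1.36, limma adjusted p = 0.0972).

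The 13 subunits encoded in mitochondrial DNA ran opposite to the nuclear-encoded ones as deposited. They summed to 75040, 98814 and 111220 deposited FPKM in the double mutant and 194861, 225002 and 92538 in Tsc1-deleted livers, against 624326, 470658 and 241515 FPKM in p53+/- livers. In the double mutant 11 of the 13 were called lower than in p53+/- livers as deposited (median log2 change -2.11), against 54 of all 12014 genes. After rescaling 1 was called lower (median -4.55), against 189 of all 12014 genes. The ratio of that sum to the sum of the 84 nuclear-encoded genes was 12.4, 15.6 and 19.0 in the double mutant and 26.3, 27.9 and 14.6 in Tsc1-deleted livers, against 1304, 914 and 43.3 in p53+/- livers. All 3 p53+/- libraries lay above the 6 others, and Tsc1-deleted library 3 lay within the double-mutant range.

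Enzymes of the citric acid cycle, which shares complex II with the chain, were read beside the members. Of 13 such genes, 10 (76.9%) were called higher in the double mutant than in p53+/- livers as deposited, against 31.9% of all genes. After rescaling 2 (15.4%) were called higher, against 2.15% of all genes, with a rescaled median log2 change of 0.82. Suclg1, a subunit of succinyl-CoA ligase, was called higher, at 19.5, 34.4 and 19.1 rescaled FPKM in the double mutant, against 8.54, 7.42 and 4.99 in p53+/- livers (log2 change 1.64, SE 0.39, limma adjusted p = 0.0499). As a share of nuclear protein-coding FPKM the 13 enzymes stood at 0.186 ± 0.0273% in the double mutant and 0.141 ± 0.0334% in Tsc1-deleted livers, against 0.0888 ± 0.0054% in p53+/- livers (SD, n = 3 each).

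Of 45 tested assembly factors of the complexes, 21 (46.7%) were called higher in the double mutant than in p53+/- livers as deposited, against 31.9% of all genes. After rescaling only Taco1, a translational activator of a complex IV subunit, was called higher and only Pet100, a complex IV assembly factor, lower. The 1 called higher was 2.22% of the 45, near the 2.15% of all genes called higher, and 3.72% of all genes were called in either direction. Taco1 stood at 4.36, 11.2 and 4.96 rescaled FPKM in the double mutant, against 1.01, 0 and 1.12 in p53+/- livers (limma adjusted p = 0.0338), and Pet100 at 5.30, 6.66 and 9.20, against 42.9, 29.5 and 22.7 (limma adjusted p = 0.0351). Of 11 tested regulators of mitochondrial biogenesis, Ppargc1a, a coactivator of respiratory genes, and Polg, the mitochondrial DNA polymerase, were called higher as deposited, or 18.2%, a share below that of all genes, and neither after rescaling. Ppargc1a stood at 2.05, 2.09 and 1.92 deposited FPKM in the double mutant, against 0.0488, 0.218 and 0.132 FPKM in p53+/- livers (limma adjusted p = 0.0151). Of 78 mitochondrial ribosomal protein genes, 23 (29.5%) were called higher as deposited, near the 31.9% of all genes, and 0 after rescaling. On the rescaled values 16 had an unadjusted limma p under 0.05, against 2648 of all 12014 genes. Of 77 cytosolic ribosomal protein genes none was called on either scale. As deposited and rescaled, 8 and 9 had an unadjusted limma p under 0.05, against 6334 and 2648 of all 12014 genes. Their rescaled median log2 change was -0.65, but p53+/- library 3 stood apart. They summed to 12228, 6836 and 10357 rescaled FPKM in the double mutant, against 10329, 9347 and 37112 in p53+/- libraries 1, 2 and 3. The genes named from these lists were taken after their values were seen.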

How the data were processed

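Liver RNA of 3 genotypes was sequenced after ribosomal RNA depletion as single reads, per the labels' protocols, although 1 label calls the molecule polyA RNA. Read trimming, alignment and quantification tools cutadapt, STAR and StringTie and the build mm9 are listed in the submitters' processing notes. Their versions are not given in the sources used here. The authors deposited 1 value per gene and library, read from the values as FPKM because no header names a unit. Of 52550 identifiers, 52403 matched GENCODE mouse release 21, which supplied symbols, chromosomes, exon lengths and overlaps on a later build.

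Values were tested as log2(FPKM + 1) with limma 3.58.1 in R 4.3.3 (intensity trend, robust variance) on the 12014 genes that reached 1 FPKM in 3 or more of the 9 libraries. All 9 libraries entered 1 fit, and p values were adjusted by Benjamini-Hochberg over all tested genes, with a threshold of 0.05. The second scale divided each library by its sum of nuclear protein-coding FPKM and multiplied by the mean sum. The smallest p of an exact permutation of 3 against 3 libraries is 0.1, so none is given. Other steps used Python 3.11.15, pandas 2.3.3, numpy 2.4.6 and matplotlib 3.10.9.

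The members, the core list, the pathway and marker lists and the tests were chosen with earlier results of these data known. Some items are not reported here. Named genes are the core subunits, the isoform sets, the 2 members of highest mean per complex, the 3 highest and 3 lowest changes per comparison after rescaling, Cyc1, Cycs and the mitochondrially encoded sum. Further genes are said to have been taken after their values were seen, as were Atp5e, Atp5h, Atp5j, Uqcrh, Uqcrq and Ndufa3. Alternatives were pseudocounts of 0.1 and 5, no filter or a filter at 5 FPKM, median-ratio and quantile scaling, limma without trend and robust steps, a fit on the 6 libraries of a comparison, replicate number as a block, and omission of each library or of p53+/- libraries 1 and 2 together, which leaves library 3 assumed to vary like the other genotypes. Read numbers were estimated from FPKM and exon length. The most frequent value above 0 of FPKM times exon length, among short genes with 1 annotated transcript, was taken as 1 read.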

Additional observations from a re-analysis of the deposited data

How the results depend on the processing

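The count of members called as deposited changed with most settings. For the double mutant against p53+/- livers, 30 became 2 with no filter, 1 with median-ratio scaling, 3 with quantile normalization (2 of them lower), 2 with only the 6 libraries compared and 7 without p53+/- libraries 1 and 2. For Tsc1-deleted against p53+/- livers, 21 became 0 with no filter, 40 with a filter at 5 FPKM, 2 with median-ratio scaling, 0 with quantile normalization, 38 without trend and robust steps, 0 with only the 6 libraries compared and 6 without p53+/- libraries 1 and 2. After rescaling, the double-mutant count of 0 became 1 with a filter at 5 FPKM, 7 without trend and robust steps and 9 without p53+/- libraries 1 and 2, and the Tsc1-deleted count of 0 became 7 in that last setting. Leaving out 1 library each gave 0 to 79 members as deposited for both comparisons with p53+/- livers, 0 to 29 after rescaling for the double mutant and 0 to 13 for Tsc1-deleted livers. The double mutant against Tsc1-deleted livers gave 0 to 0 on both scales, also in the settings added after the data were seen.

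Replicate numbers were not taken as pairs in the main fit. Correlations of same-numbered deviations between genotypes ran from -0.197 to 0.317. Libraries of different numbers were not compared in this way, so whether the numbers pair libraries was not tested. With the replicate block, 43 members were called in the double mutant and 42 in Tsc1-deleted livers against p53+/- livers as deposited, and 0 after rescaling. Of the log2 changes of single genes printed, 3 turned sign under an alternative. Ndufa4l2 in the double mutant against p53+/- livers ranged from -1.11 to 0.21 with 1 library left out, the highest without p53+/- library 3. Cycs ranged from -0.0416, without double-mutant library 2, to 0.2194, and was -0.0178 without p53+/- libraries 1 and 2. Sdhd in the double mutant against Tsc1-deleted livers ranged from -0.0356, without Tsc1-deleted library 2, to 0.2562, in the fits of 9 and of 6 libraries. Some rescaled medians over genes crossed 0 as well. Against p53+/- livers, the median of the members ran from -0.353 to 0.4488 in the double mutant and from -0.0289 to 0.6406 in Tsc1-deleted livers. That of complex I ran from -0.5495 to 0.2081 in the double mutant. Between the double mutant and Tsc1-deleted livers, that of complex II ran from -0.0687 to 0.0611. The causes were not tested. About 1000000 and 700000 nuclear protein-coding reads limit the precision of p53+/- libraries 1 and 2.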
